A study of Zea mays with 8 samples.

Results

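In immature ears of maize hybrids between the inbred lines B73 and Mo17, 60 of 39498 gene IDs lay clearly below both parents in every hybrid library. An ID was taken as a member when it was numbered above 460, reached at least 5 CPM (counts scaled to a total of 1000000 per library) in all 4 parental libraries, and had a highest CPM among the 4 hybrid libraries of at most 50% of the lowest parental CPM. Of the 39005 IDs with a number above 460, 15921 met the floor of 5 CPM in the parents, and the 60 members were 0.377% of these. The members were chosen by their levels in all 8 libraries, so the fall from parents to hybrids is described here without a test.

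A hybrid that inherits 1 copy of each gene from each parent is expected, if the copies act independently, to express a gene near the mean of the parents. Genes expressed below the lower parent are the underdominant class of non-additive expression. An RNA-dependent RNA polymerase is the product of mop1; it turns transcripts into double-stranded RNA, from which the small RNAs are cut that guide DNA methylation, including CHH methylation near many maize genes. The immature ear is the female inflorescence, a tissue rich in meristems that form spikelets and florets.

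RNA from immature ears was sequenced in 4 groups of 2 libraries: the wild-type inbred parents B73 and Mo17, a hybrid with wild-type alleles of mop1 (WTF1, genotype Mo17/B73 and +/+) and a hybrid carrying the mop1 mutation on both copies (mop1F1, genotype B73/Mo17 and mop1/mop1). The labels name no mop1 allele, no age of the ears and no account of the crosses, and the order of the parents differs between the hybrids along with mop1. Whether 2 replicates stand for 2 plants is not stated, so that the p-values describe the spread among libraries and part of it may be technical. Per the names of the deposited tables, Mo17 reads were aligned to the Mo17 genome and those of B73 and of the hybrids to the B73 genome, so parent and genome cannot be told apart.

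The libraries held 11723096 to 26199577 counts over gene IDs. Some technical measures moved with the groups, and their part in the results was not tested. Reads of low alignment quality made up 8.01% to 9.35% of records in the 4 hybrid libraries, against 1.76% to 2.24% in B73 and 5.76% to 6.06% in Mo17. Ambiguous reads made up 9.70% and 10.25% in the hybrid libraries numbered 1, against 1.29% to 2.35% in the other 6. None of the Zm00001d IDs matched the gene table used here (0 of 39324), so the members carry no gene names, no function is given for any of them, and markers of the ear or of other tissues were not analysed here. In bulk tissue, fewer cells of a type and less RNA per cell cannot be told apart.

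The 60 members together made up a small part of the parental messages and a much smaller part of the hybrid ones. Their summed level was 5549 and 4798 CPM in the B73 libraries and 3613 and 3621 CPM in the Mo17 libraries. It was 851 and 917 CPM in WTF1 and 1099 and 651 CPM in mop1F1. The hybrid sums were thus 14.8% to 25.01% of the mean parental sum, and mop1F1 held both the highest and the lowest of them. The median member stood at 31.1 and 31.7 CPM in B73, 16.8 and 17.6 CPM in Mo17, 3.92 and 3.19 CPM in WTF1, and 4.72 and 2.30 CPM in mop1F1.

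**Figure D1:**
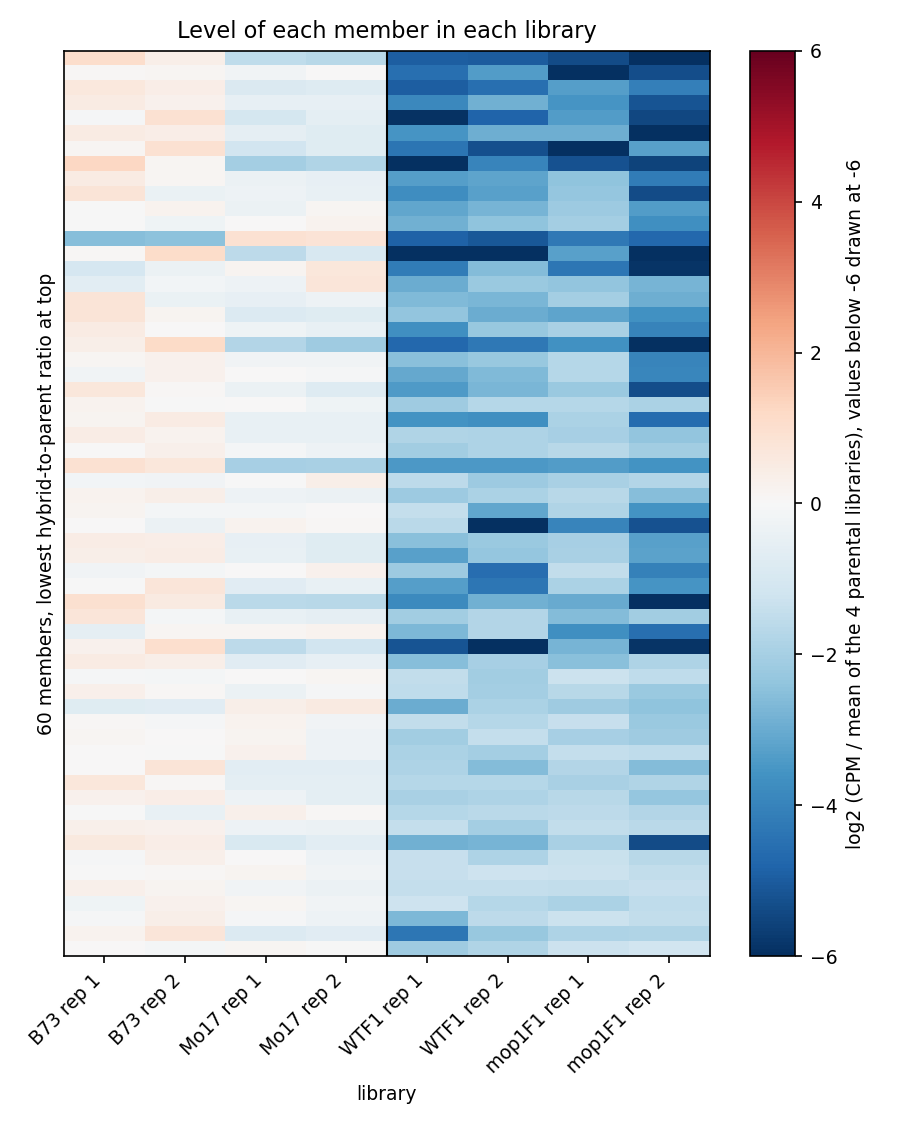
Level of each of the 60 members (rows) in each of the 8 libraries (columns), as log2 of the CPM over the mean of the 4 parental libraries, with blue for lower and red for higher values. Rows run from the lowest ratio of hybrid to parent at the top; the 4 hybrid columns right of the line are blue in every row, and mop1F1 replicate 2 has the darkest cells in 31 of the 60 rows among the hybrids.

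The gap between parents and hybrids varied widely among the members. The mean of the 4 parental libraries exceeded that of the 4 hybrid libraries by 2.55-fold to 45.2-fold, with a median of 5.86-fold. It was under 4-fold in 19 members, from 4-fold to under 8-fold in 21, from 8-fold to under 16-fold in 10 and at least 16-fold in 10. The median log2 ratio of hybrid to parental mean was -2.55 over the members (quartiles -3.35 and -1.88) and -0.07 over the 15921 IDs at the floor (quartiles -0.37 and 0.26). CPM is scaled to the total of each library, so this median cannot show whether the hybrid level was shifted as a whole.

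**Figure D2:**
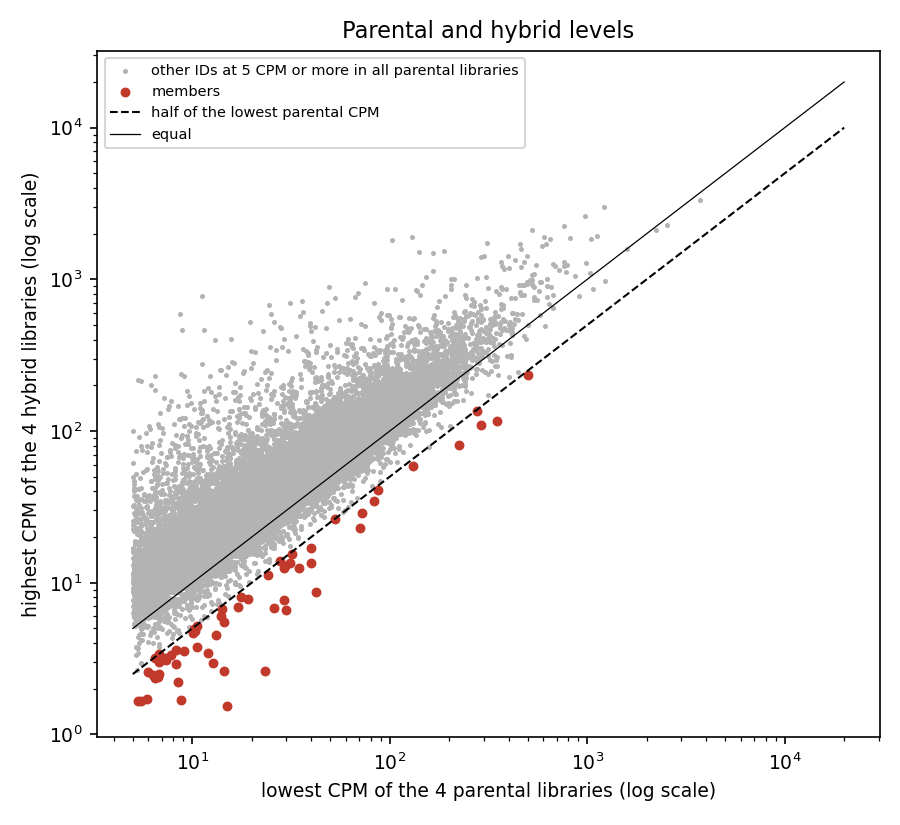
Highest CPM of the 4 hybrid libraries against the lowest CPM of the 4 parental libraries, both on log scales, for the 15921 IDs at 5 CPM or more in all parental libraries. The 60 members (red) lie on or under the dashed line at 50% of the lowest parental CPM, at every parental level up to 500 CPM, and the other IDs (grey) lie above it.

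At this floor, more IDs lay below both parents than above both. At least a 2-fold gap to every parental library was found below for 60 IDs and above for 16 IDs. At a ratio of at most 0.667 the numbers were 166 below and 86 above, and at most 0.333 they were 15 below and 0 above. The floor was set on the parents. With the floor set on the hybrids in its place, 37 IDs lay above both parents. These numbers are for CPM scaled to the library total. With TMM-scaled CPM, 47 IDs lay below, and the number above was not counted.

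The members with the lowest ratio of hybrid to parent were close to silent in the hybrids. Zm00001d008370.RefGen_V4 stood at 98.1 and 59.6 CPM in B73 and at 16.2 and 14.9 CPM in Mo17. It had 1.54 and 1.49 CPM in WTF1, 1.15 CPM in mop1F1 replicate 1 and 0 counts in mop1F1 replicate 2, where 3 counts would be 0.115 CPM. Its parental mean was 45.2 times its hybrid mean, the largest ratio of all 60 members, and the B73 level was several times that of Mo17.

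Zm00001d027824.RefGen_V4 was nearly equal in the parents, with 28.3 and 29.9 CPM in B73 and 23.3 and 27.7 CPM in Mo17. It had 1.19 and 2.63 CPM in WTF1 and 0.425 and 0.691 CPM in mop1F1. Its highest hybrid library was at 11.3% of its lowest parental library. The mop1F1 libraries were below both WTF1 libraries, which the rule did not ask for.

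The members with high parental means differed in how their hybrid libraries lay. Zm00001d040422.RefGen_V4 had 677 and 499.8 CPM in B73, 863 and 723 CPM in Mo17, 214 and 226 CPM in WTF1, and 235 and 207 CPM in mop1F1. Its 4 hybrid libraries lay within a narrow band at a parental mean 3.13 times as high. Zm00001d039542.RefGen_V4 had 775 and 685 CPM in B73 and 278 and 332 CPM in Mo17. It had 70.4 and 76.0 CPM in WTF1 but 135 and 12.4 CPM in mop1F1, so the mutant libraries stood on either side of the wild-type ones.

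By parental mean, 7 members were under 10 CPM, 39 from 10 to under 50 CPM, 5 from 50 to under 100 CPM and 9 at 100 CPM or more. These 9 accounted for 66.0% of the summed parental level and had parental means 3.13 to 14.1 times their hybrid means, with a median of 5.29. For the other 51 the median was 6.17. The counts behind the hybrid values were lowest in WTF1 replicate 1, where the median member had 46 counts, and reached 111 in mop1F1 replicate 1. In 5 members at least 1 hybrid library held 3 or fewer counts, and in 3 of them a hybrid library held none. All 60 members had at least 88 counts in every parental library, and a count of 3 corresponds to 0.115 to 0.256 CPM per library, a limit that covers counting error only.

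The limits of the rule passed through a continuous range of values. Just inside the ratio limit, Zm00001d043047.RefGen_V4 had a highest hybrid level of 13.9 CPM and a lowest parental level of 27.8 CPM, a ratio of 49.99%. Just outside it, Zm00001d047976.RefGen_V4 had 5.95 and 11.9 CPM, a ratio of 50.1%. At the floor, Zm00001d025753.RefGen_V4 was just inside with a lowest parental level of 5.31 CPM, and Zm00001d002473.RefGen_V4 was just outside with 4.99 CPM.

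The library mop1F1 replicate 1 most often set the value that the rule reads in the hybrids. It was the highest hybrid library for 32 of 60 members (53.3%), against 18.4% of the IDs at the floor. Leaving out a library can only add IDs to the rule, and all 60 members stayed; without this one, 133 IDs met it. By hybrid, 148 IDs met it in the WTF1 libraries alone and 127 in the mop1F1 libraries alone. By library number, 137 met it in the hybrid libraries numbered 1 and 347 in those numbered 2, so that the 60 members were 43.8% of the first and 17.3% of the second.

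The hybrid libraries were less alike at the members than at other IDs. The highest hybrid library was over 4 times the lowest in 25 members (41.7%), against 8.63% of the IDs at the floor. It was at most 1.5 times the lowest in 9 members (15.0%), against 27.3%. The libraries of a group were more than 2-fold apart at 5 members for B73 and at 1 for Mo17 (8.33% and 1.67%, against 0.427% and 0.440% of the IDs at the floor). They were so at 14 members for WTF1 and at 26 for mop1F1 (23.3% and 43.3%, against 17.6% and 20.5%). Levels in the hybrids were low, with a mean under 5 CPM in 38 members, and relative counting error is larger at low levels. The median member had 46 to 111 counts in a hybrid library. The part of counting error in this spread was not tested.

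Most members were expressed more highly in B73 than in Mo17. The rule asked the same of both parents and did not use this contrast. Both B73 libraries were above both Mo17 libraries at 36 members (60%) and below them at 10 (16.7%). Over the 15921 IDs at the floor, the shares were 27% and 44%, with Mo17 more often the higher parent. The B73 mean was more than 2-fold above that of Mo17 at 17 members (28.3%), against 5.502% of the IDs at the floor, and more than 2-fold below it at 3 members (5%), against 4.62%. These shares are descriptions; the parents were mapped to different genomes, and the part of this in the direction was not tested.

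**Figure D3:**
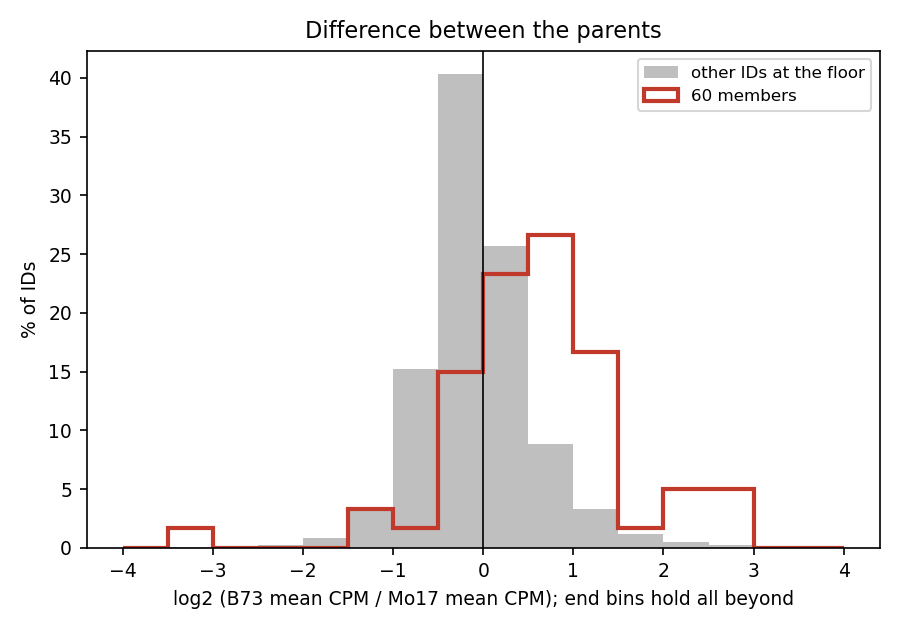
Share of IDs (y axis, %) by the log2 ratio of the B73 mean CPM to the Mo17 mean CPM (x axis, bins of 0.5), for the 60 members (red outline) and the other IDs at the floor (grey). The member outline lies mostly right of 0, where B73 is higher (47 of 60 members), while 40.03% of all IDs at the floor do.

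Few of these parental differences passed the test across all IDs (edgeR quasi-likelihood test on counts, Benjamini-Hochberg adjusted p below 0.05, all 8 libraries in 1 fit). Of 60 members tested, 4 were called higher and 1 lower in B73, against 6.21% and 4.24% of the 24511 IDs tested. The called share of members, 5 of 60, was thus near the background of 10.4%. The median log2 difference was 0.68 over the members and 0.00 over all IDs tested, and 48 members were on the B73 side. The spread of the hybrid libraries enters this fit: with the parents fitted alone, 31 members were called higher and 3 lower in B73, while the shares over all 23444 IDs also rose, to 21.6% and 18.2%. DESeq2 called 8 members higher and 1 lower in B73, against 7.03% and 4.63% of IDs. Without any 1 parental library 2 members were called, against 4.18% to 4.44% of IDs (edgeR). Without mop1F1 replicate 1 there were 18, against 15% of IDs, and without mop1F1 replicate 2 there were 17, against 15.2% (edgeR).

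Zm00001d025333.RefGen_V4 had 68.5 and 57.6 CPM in B73 and 9.11 and 9.25 CPM in Mo17, with a log2 difference of 2.85 ± 0.27 (SE; adjusted p = 0.000652 by edgeR). In the hybrids it stood at 3.33, 3.32, 3.53 and 3.03 CPM, below the lower parent and within a narrow band. Its call held in all 13 alternatives run (edgeR or DESeq2, adjusted p from 4.12e-14 to 0.0145).

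Zm00001d037886.RefGen_V4 was the called member with the opposite direction. It had 5.48 and 5.95 CPM in B73 and 60.6 and 57.1 CPM in Mo17, with a log2 difference of -3.30 ± 0.31 (SE; adjusted p = 0.00059 by edgeR). Its hybrid libraries held 1.11, 0.954, 1.66 and 1.23 CPM, far under the level of Mo17 and also under that of B73. This call held in all 13 alternatives too (edgeR or DESeq2, adjusted p from 7.34e-16 to 0.0136).

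The other called members were higher in B73. Zm00001d027541.RefGen_V4 had 36.9 and 65.2 CPM in B73 and 8.62 and 6.71 CPM in Mo17 (log2 fold change 2.80 ± 0.70, SE, edgeR, adjusted p = 0.0455). Zm00001d037779.RefGen_V4 had 81.8 and 37.9 against 8.50 and 9.95 CPM (2.77 ± 0.62, adjusted p = 0.0307, edgeR), and Zm00001d045359.RefGen_V4 had 59.5 and 38.7 against 24.3 and 24.2 CPM (1.09 ± 0.28, adjusted p = 0.0474, edgeR); both were named after their values were seen, to complete the count. All 3 calls were lost without any 1 parental library (edgeR, adjusted p from 0.0595 to 0.364), and those of Zm00001d027541.RefGen_V4 and Zm00001d045359.RefGen_V4 also without either WTF1 library (edgeR, adjusted p from 0.0539 to 0.0723) and in a fit blocked by replicate number (edgeR, adjusted p = 0.0562 and 0.0717). The call of Zm00001d045359.RefGen_V4 was lost with no filter on low counts as well (edgeR, adjusted p = 0.056). Over all alternatives the adjusted p of these 3 ranged from 2.51e-05 to 0.364 (edgeR or DESeq2). Zm00001d048710.RefGen_V4, with 7.25 and 7.52 CPM in B73 and 15.4 and 17.6 CPM in Mo17, did not overlap between the parents and did not pass (log2 fold change -1.09 ± 0.43, SE, edgeR, adjusted p = 0.176).

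The rule places every member below both parents, so the levels relative to each parent are given as a description, and a lower share of the higher parent follows from the rule. At the 17 members with a B73 mean more than 2-fold above that of Mo17, the median hybrid mean was 5.08% of the B73 mean and 17.9% of the Mo17 mean. At the 40 members whose parental means were within 2-fold, it was 20.1% and 26.4%. The hybrids were mapped to B73, so the B73 parent is the one mapped to the same genome. Hybrid reads from the Mo17 copies were also aligned to the B73 genome, while those of the Mo17 parent went to the Mo17 genome. Neither parent is thus mapped quite like the hybrids, and the part of this in the levels was not tested. Set against the lower B73 library alone, the highest hybrid library was at 2.58% to 49.99%, with a median of 28.5%, and it was under 25% in 24 members.

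The comparison of mop1F1 with WTF1 asks what the mop1 mutation changes in a hybrid, and no member was called in it. Of 60 members tested, 0 passed in mop1F1 against WTF1 (edgeR, adjusted p = 1 for every member), where 0.00816% of all 24511 IDs did. DESeq2 also called 0 members, against 0.13% of IDs. At these shares, 0 of 60 does not set the members apart from other IDs. At an unadjusted p below 0.05, edgeR had 4 members higher and 3 lower in mop1F1, against 1.18% and 0.681% of IDs, and DESeq2 had 8 members, against 1.69%. The median log2 difference was 0.11 over the members and 0.05 over all IDs tested, and 41 members were on the side of mop1F1. Both mop1F1 libraries were above both WTF1 libraries at 7 members and below them at 8, against 3.79% and 6.41% of the IDs at the floor.

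Members whose hybrid groups did not overlap are given as values. Zm00001d025753.RefGen_V4 had 1 and 0 counts in the WTF1 libraries and 39 and 6 counts in mop1F1, too few for a fold, against 307 and 575 counts in B73. Zm00001d002094.RefGen_V4 had 4.61 and 19.2 CPM in WTF1 and 26.2 and 26.5 CPM in mop1F1 (log2 fold change 1.20 ± 0.56, SE, edgeR, adjusted p = 1). Zm00001d011183.RefGen_V4 had 3.07 and 6.03 CPM in WTF1 and 1.57 and 0.883 CPM in mop1F1 (-1.81 ± 0.50, SE, edgeR, adjusted p = 1). For Zm00001d027824.RefGen_V4, described above, the log2 fold change was -1.74 ± 0.45 (SE, edgeR, adjusted p = 1).

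In summed level over the members, the libraries of the mutant hybrid lay on opposite sides of those of the wild-type hybrid. This did not hold at every member, since both mop1F1 libraries were above both WTF1 libraries at 7 and below them at 8. Among the libraries numbered 1, the members' summed level was 1099 CPM in mop1F1 and 851 CPM in WTF1. Among those numbered 2, it was 651 CPM in mop1F1 and 917 CPM in WTF1. By member, mop1F1 was lower than WTF1 at 16 of 60 in the first pair (26.7%, against 55.3% of the IDs at the floor) and at 40 of 60 in the second (66.7%, against 50.2%). The median log2 difference was 0.49 among libraries numbered 1 and -0.48 among those numbered 2. Without mop1F1 replicate 1, 4 members were called lower in mop1F1, with 187 IDs called in all, 0.689% of IDs lower and 0.0472% higher (edgeR). They were Zm00001d008370.RefGen_V4, Zm00001d019060.RefGen_V4, Zm00001d027932.RefGen_V4 and Zm00001d039542.RefGen_V4, named after their values were seen. In that fit mop1F1 rests on 1 library, assumed to vary like the other groups. That library held 0 counts of Zm00001d008370.RefGen_V4 and Zm00001d027932.RefGen_V4, and the library left out held 27 and 154. The median log2 difference over the members was -0.46 in that fit and 0.42 without mop1F1 replicate 2 (edgeR).

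Within mop1F1, replicate 2 was below replicate 1 at 50 of 60 members (83.3%), against 35.5% of the IDs at the floor. Within WTF1 it was so at 24 members (40%), against 43.5%. The median log2 difference of replicate 2 from replicate 1 was -0.81 in mop1F1 (0.26 over the IDs at the floor) and 0.19 in WTF1 (0.11 over those IDs). With TMM scaling, which sets mop1F1 replicate 1 higher, 54 members were lower in replicate 2 of mop1F1, against 44.1% of the IDs at the floor.

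**Figure D4:**
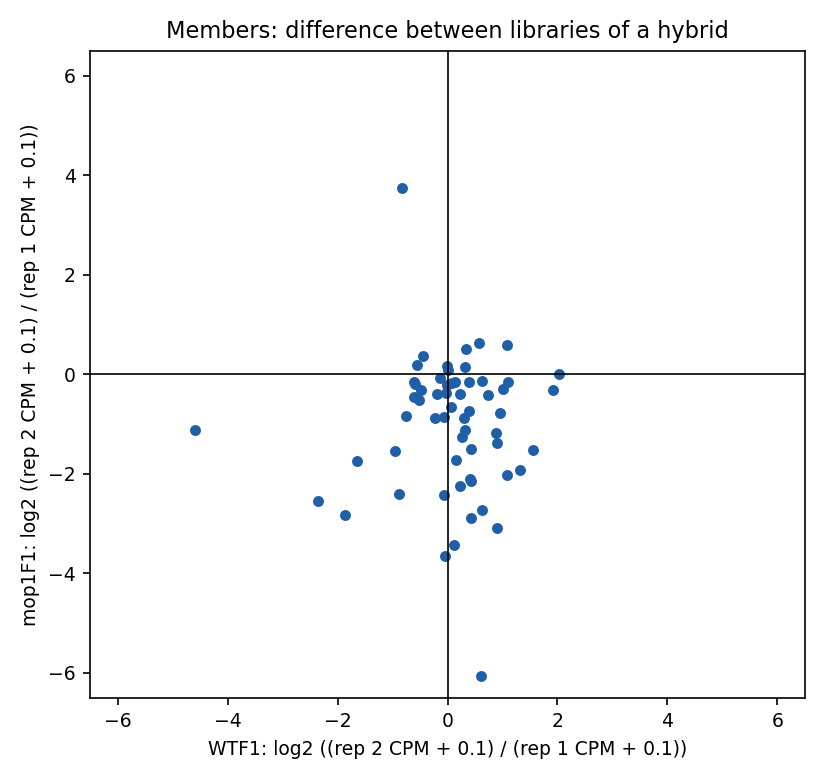
Log2 difference of replicate 2 from replicate 1 in mop1F1 (y axis) against the same in WTF1 (x axis), 1 point for each of the 60 members, with 0.1 CPM added to each value. Most points (50 of 60) lie below the horizontal line, where mop1F1 replicate 2 is lower, and they fall on either side of the vertical line.

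The hybrid libraries numbered 1 and 2 were also compared across both hybrids. The headers of the count tables mark number 1 as GP1 and number 2 as GP5 in both hybrids, with no account of what this means. With a term for the number, 3 members were called lower and 0 higher in number 2 (edgeR, against 2.26% and 0.143% of the 24511 IDs, 2.4% in all). At an unadjusted p below 0.05, edgeR had 7 members lower and 2 higher, against 14.6% and 9.96%. DESeq2 called 6 members, all lower in number 2, against 7.98% of IDs. Both libraries numbered 2 were below both numbered 1 at 14 members (23.3%, against 19% of the IDs at the floor) and above them at 2 (3.33%, against 39.3%). The median log2 difference was -0.44 over the members and 0.05 over all IDs tested, and 46 members were on the lower side. The 3 calls were lost without any 1 parental library and in a fit of the hybrids alone (edgeR, 0 members and at most 1 of all IDs called in each).

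Zm00001d011063.RefGen_V4 had 10.4 and 17.1 CPM in the libraries numbered 1 of WTF1 and mop1F1 and 1.95 and 2.84 CPM in those numbered 2, against 40.1 to 57.0 CPM in the parents. Its log2 difference was -2.58 ± 0.23 (SE, edgeR, adjusted p = 0.0225). The difference between the numbers was thus about as large in the wild-type hybrid as in the mutant.

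Zm00001d044686.RefGen_V4 had 0.682 and 3.62 CPM in number 1 of WTF1 and mop1F1 and 0.115 and 0.422 CPM in number 2, from 8, 85, 3 and 11 counts (-3.03 ± 0.47, SE, edgeR, adjusted p = 0.0388). Zm00001d051556.RefGen_V4, named after its values were seen, had 6.91 and 5.40 CPM in number 1 and 2.14 and 1.54 CPM in number 2 (-1.82 ± 0.27, SE, edgeR, adjusted p = 0.0358). Over all alternatives the adjusted p of these 3 members ranged from 1.68e-15 to 0.459 (edgeR or DESeq2). Zm00001d012158.RefGen_V4 went the other way without passing, with 7.93 and 8.30 CPM in number 1 and 11.8 and 12.9 CPM in number 2 (0.53 ± 0.19, SE, edgeR, adjusted p = 0.169).

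The members were scattered over the range of ID numbers, from 2094 to 52985, with a median gap of 584 between neighbouring members. In annotations of this kind, numbers mostly run with chromosome position, but no coordinates were used here. Within 10 numbers of each other there were 2 pairs: Zm00001d047020.RefGen_V4 with Zm00001d047025.RefGen_V4, and Zm00001d020409.RefGen_V4 with Zm00001d020417.RefGen_V4, named after their values were seen. The next IDs at the floor within 10 numbers of a member, 116 in all and none of them members, had a median log2 ratio of hybrid to parental mean of -0.03, near the -0.07 of all IDs at the floor. Of these neighbours, 57.8% had a hybrid mean below the parental mean, against 55.8% of all IDs at the floor.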

How the data were processed

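Whole-number counts per gene ID were used as deposited, 1 table per library; the authors deposited no normalized values among the tables used here. The submitters' processing notes list DESeq2, FastQC, HISAT2, HTSeq and Trimmomatic with no versions. The member IDs carry the suffix RefGen_V4, and no annotation release is stated beyond this. The alignment settings and whether counting used strand are not stated, so overlapping or antisense genes and close gene copies may share reads. The tables' 5 summary rows entered neither totals nor tests. CPM values are counts divided by each library's total over gene IDs.

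The members, lists and tests were chosen with earlier results of these data known. Tests used edgeR 4.0.16 (R 4.3.3, limma 3.58.1): filterByExpr, TMM, a group-means design over 8 libraries, glmQLFTest and Benjamini-Hochberg adjustment over all IDs. SE is the log2 fold change over the square root of F. For the library number a term for number 2 in the hybrids was added. DESeq2 1.42.0 was an alternative. The fits were also run on simulated counts drawn independently for each library, and no result above rests on this. Groups came from sample titles. The B73 library titled replicate 2 is numbered 1 in its table's name, and the title was followed.

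Named IDs were the 2 with the lowest ratio, the 2 with the highest parental mean, per comparison the 2 called members with the largest change each way (filled by members without overlap), and those at the limits of the rule. Gene lists planned by name were not tested, since no ID had a name.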

Additional observations from a re-analysis of the deposited data

Results flagged for a closer look

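Some classes of records that were set aside in counting, and that enter none of the comparisons, were more frequent in certain hybrid libraries than in any parental library. This did not hold for every class: ambiguous reads were 1.29% and 1.35% in the hybrid libraries numbered 2, below all parents, and unaligned reads were 2.79% to 3.21% in the hybrids, below both Mo17 libraries (5.97% and 6.11%). Among the libraries numbered 1, ambiguous reads were 9.70% of the records for WTF1 and 10.25% for mop1F1, with at most 2.35% in a parent. Low alignment quality was given to 9.35% and 8.31% of records for WTF1 and to 9.35% and 8.01% for mop1F1, with at most 6.06% in a parent. Their part in the levels of the members was not tested.

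The members' summed level in mop1F1 minus that in WTF1 was 247.8 CPM among the libraries numbered 1 and -266.8 CPM among those numbered 2. The signs were opposite with 1 library on each side, and this difference was not tested.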

How the results depend on the processing

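The rule selected 47 IDs with TMM-scaled CPM and 48 with DESeq2 size factors, of which 46 and 47 were among the 60. It selected 120 with a floor of 1 CPM, 41 with a floor of 10 CPM, 166 with a ratio of 0.667, 15 with a ratio of 0.333, 347 without both hybrid libraries numbered 1 and 137 without both numbered 2. Leaving out 1 library, which can only add IDs, gave 65 to 133 IDs, the highest without mop1F1 replicate 1. The median log2 ratio of the members was -2.47 with TMM and -2.49 with DESeq2 size factors.

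Members called in mop1F1 against WTF1 numbered 0 in every alternative except without mop1F1 replicate 1 (0 to 4 over the libraries left out; 0.736% of all IDs where it was 4). In B73 against Mo17 there were 9 with DESeq2 (11.7% of all IDs), 34 with the parents alone (39.8%), 3 with the replicate number as a block (9.27%), and 2 to 18 without 1 library (4.18% to 15.2%). Between the hybrid numbers there were 6 with DESeq2 (10.3%), 0 with the hybrids alone (0 of 24001 IDs), and 0 to 29 without 1 library (0% to 24.3%, and 23.4% where it was 29). Without a hybrid library that term rests on the other hybrid alone, which leaves no residual of its own. The cause of these changes was not tested. Of 177 alternatives for single named members, 140 kept the direction and the side of the threshold, 36 lost the call, 1 gained it and 0 turned the direction. The 140 include members that were uncalled in the main fit and stayed so, and all 36 losses were at called members. The call held in all 13 alternatives for Zm00001d025333.RefGen_V4 and Zm00001d037886.RefGen_V4. For the other called members it held in 5 to 9 of 12 or 13.

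Libraries of the same number deviated together with a correlation of 0.295 between WTF1 and mop1F1 and 0.0204 between B73 and Mo17 (24511 IDs), which does not establish a pairing. Between a parent and a hybrid this correlation ran from -0.0688 to 0.0977. With the block, no member was called in mop1F1 against WTF1. That block was a term shared by all 8 libraries, parents included. A number term for the hybrids alone was not fitted in this comparison. The comparison was thus not tested with the hybrid libraries paired by number. Counts under 4 per library limit the lowest hybrid levels.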
